A study of Mus musculus with 19 samples.

Results

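Clotting and clot-dissolving factors were followed in mouse liver through 33 genes chosen by symbol: 5 contact factors and kininogens, 3 genes of the tissue factor pathway, 7 common pathway factors and cofactors, 3 clot-stabilising genes, 7 anticoagulants and 8 fibrinolysis genes. All 33 were found among 55416 gene lines, and all 33 were among the 15570 genes with enough counts to be tested. The 19 liver libraries came from C57BL/6 mice in 5 groups. Normal mice were WT and not injected (n = 4). WT vehicle (n = 4) and WT PRA (n = 4) mice were injected intraperitoneally 2 times with an interval of 3 h, with vehicle or with 4 mg of furosemide per injection. IL-6-/- mice, called KO here, received the same vehicle (n = 4) or furosemide (n = 3) injections. Harvest followed at 6 h from the first dose. The drug is a loop diuretic that increases loss of salt and water in urine, and PRA stands for pre-renal azotemia, the build-up of nitrogenous waste in blood when the kidneys are poorly perfused. The labels name no age or sex of the mice, no composition of the vehicle and no measure of azotemia per mouse, and there was no non-injected IL-6-/- group. The comparisons ask which of these genes differ in the liver under PRA, and whether IL-6, the cytokine through which inflammation raises hepatocyte output of acute phase proteins, bears on the difference.

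Most clotting factors in plasma are made by hepatocytes and secreted as inactive precursors. Tissue factor on cells outside the blood starts the cascade with factor VII, the contact factors can start it on charged surfaces, and both routes lead through factor X to thrombin, which turns fibrinogen into fibrin. Antithrombin, heparin cofactor II, tissue factor pathway inhibitor and the thrombomodulin and protein C system restrain it, and plasmin, released from plasminogen by the urokinase and tissue-type activators, dissolves the clot. Factor VIII, von Willebrand factor and thrombomodulin are made mainly by endothelial cells, and ADAMTS13, which trims von Willebrand factor, by hepatic stellate cells.

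Libraries held 32073865 to 74041441 gene counts. Il6 itself had 0 to 4 counts in WT libraries and 1 to 16 in KO libraries, so its level in liver could not check the genotype labels. The first principal component of all genes held 33.5% of the variance and put the 7 PRA libraries at 31.8 to 53.7 and the other 12 at -36.1 to -11.5. Levels are CPM, counts put on a common library total, with the totals scaled by the trimmed mean of M-values (TMM), which divides out a shift shared by most genes. TMM factors were 0.845 to 0.953 in PRA libraries and 1.01 to 1.16 in the others, so this choice of scale matters for small changes. Differences were tested with edgeR's quasi-likelihood test, with p-values adjusted by Benjamini-Hochberg over all 15570 genes and 0.05 as threshold. Whether replicates are separate animals is not stated, so a p-value reflects only how far these samples spread, and that spread could be technical. In whole liver, fewer cells of a type and less RNA per cell cannot be told apart.

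In normal liver the members spanned the range from major secreted proteins to transcripts near the limit of detection. Per kilobase of exon (union of exons in GENCODE M21), the highest level was that of Vtn (vitronectin, an adhesive protein of plasma and matrix), at 1366 CPM per kb. Plg (plasminogen) followed at 625, Kng1 (kininogen) at 547, Hrg (histidine-rich glycoprotein, a plasminogen binder) at 515, Pzp (a broad protease inhibitor) at 442 and F2 (prothrombin) at 433 CPM per kb. Then came Serpinf2 at 303, F12 at 299, Proc at 274, Serpinc1 at 258, F10 at 194, Serpind1 at 194 and Cpb2 at 186 CPM per kb. A middle tier ran from Kng2 at 66.8 through F13b, Proz, F7, F9, F11, Klkb1 and F5 down to Pros1 at 10.6 CPM per kb. F3 stood at 2.30, and Tfpi, Thbd, Plau, Adamts13, F8, Procr, Vwf, Plaur and Plat lay between 0.769 and 0.142 CPM per kb. Of 32 neighbouring pairs in this order, 15 did not overlap over the 4 normal libraries. Vtn, Plg, F2 and F9 each stood clear of the next gene, while F12 and Proc, Kng2 and F13b, or Tfpi, Thbd, Plau and Adamts13 could not be separated from their neighbours. F13a1, the catalytic A subunit of factor XIII, had 0, 2, 5 and 3 counts in the normal libraries. All 33 members together took 2.2% ± 0.0386 (SD, n = 4) of gene counts in normal liver, 2.25% ± 0.0347 (n = 4) in WT vehicle, 2.29% ± 0.0764 (n = 4) in WT PRA, 2.28% ± 0.0277 (n = 4) in KO vehicle and 2.18% ± 0.104 (n = 3) in KO PRA.

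The liver label matched its markers: 9 hepatocyte markers summed to 75408 to 160945 CPM over the 19 libraries, and none was at 0 in every library of a group. Sinusoidal endothelial (13 markers), stellate (11), Kupffer (9) and monocyte (8) markers were also present, each list summing to at least 151 CPM in every library. The monocyte list includes Fn1, which is not restricted to monocytes. Over all 19 libraries, 23 members averaged at least 10 CPM and 10 averaged less (F3, Tfpi, F8, Vwf, Adamts13, F13a1, Procr, Plat, Plau and Plaur).

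**Figure D1:**
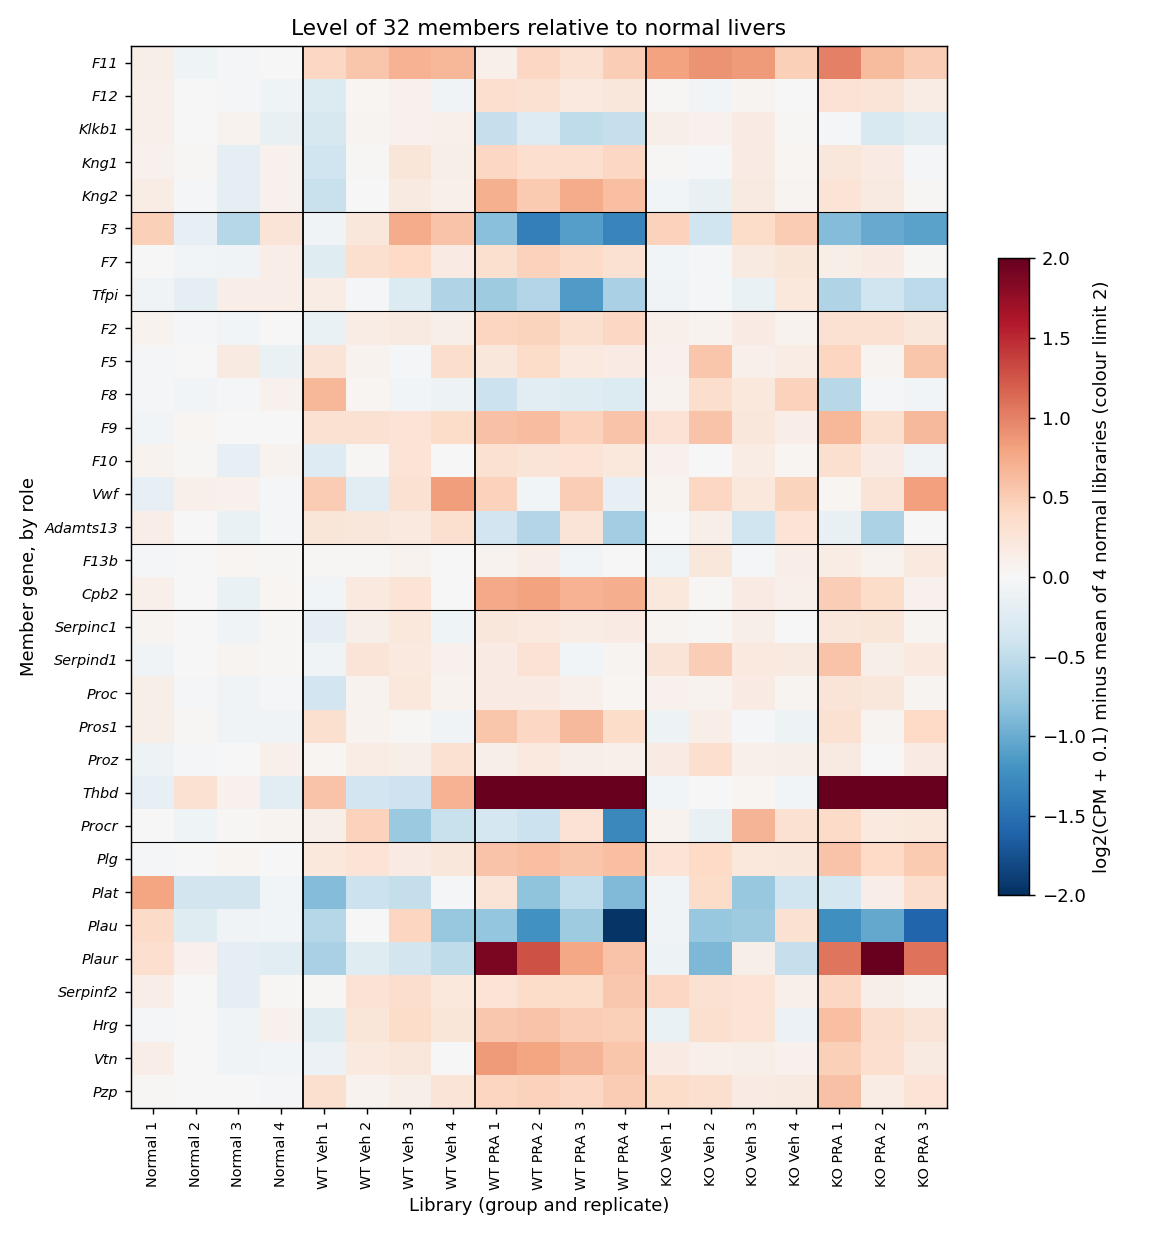
Level of 32 members (rows, by role) in each of the 19 libraries (columns), as log2 of CPM plus 0.1 minus the mean of the normal libraries; F13a1 is left out for its low counts and colours stop at a difference of 2. Thbd is past that limit in all 7 PRA libraries, and F3 is below its normal mean in the same 7 libraries.

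In WT liver, PRA went with changes in 17 of the 33 members, or 51.5%, where 22.1% of all genes tested were called. Of the 17, 11 were higher, against 9.74% of all genes, and 6 were lower, against 12.3%. The median log2 fold change of the members was 0.17 and that of all genes tested -0.03. The endothelial anticoagulant receptor Thbd and the urokinase receptor Plaur rose most, and the initiator of clotting, F3, fell most. In 15 of 33 members the WT PRA and WT vehicle libraries did not overlap, against 23.2% of all genes. Unadjusted p was at or under 0.05 for 21 members. The share of all genes at that cut was not counted here or below. Such counts of unadjusted p therefore have no background beside them.

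Of the 3 tissue factor pathway genes, F3 and Tfpi fell and F7 did not pass. F3 encodes tissue factor, the membrane receptor that starts clotting with factor VII. It was at 5.34, 6.53, 9.38 and 8.38 CPM in WT vehicle and at 3.09, 2.10, 2.54 and 2.19 CPM in WT PRA. All 4 PRA libraries were below all 4 vehicle libraries and also below the normal range of 3.72 to 7.84 CPM. F3 fell 3.00-fold, by 1.58 ± 0.24 (SE) on the log2 scale, with an adjusted p of 7.17e-05. Tfpi, the inhibitor of the tissue factor and factor VIIa complex, was at 4.65, 4.10, 3.43 and 2.73 CPM in WT vehicle and at 2.52, 2.75, 1.85 and 2.62 CPM in WT PRA. The groups touched, since the highest PRA library lay just above the lowest vehicle library, and the fall was by 0.62 ± 0.16 on the log2 scale (adjusted p = 0.00979). F7, the secreted partner of tissue factor, was at 135 ± 6.57 CPM in WT PRA and 119 ± 21.8 CPM in WT vehicle (SD, n = 4 each) and did not pass (log2 fold change 0.19, adjusted p = 0.240).

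The promoter of F3 is shown because F3 had the largest fall. The sequence is from RefSeq (GRCm38.p6, not the GRCm39 build of the counts) and covers chr3:121723287-121723536, plus strand, the 250 bases before the annotated start.
F3: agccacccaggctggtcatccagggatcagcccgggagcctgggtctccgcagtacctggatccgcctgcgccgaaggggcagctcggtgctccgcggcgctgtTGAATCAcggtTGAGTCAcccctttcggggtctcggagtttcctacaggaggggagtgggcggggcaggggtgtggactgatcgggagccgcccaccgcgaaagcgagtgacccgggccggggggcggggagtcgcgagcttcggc
Capitals mark matches to the AP-1 motif TGANTCA, at -146 to -140 and -135 to -129 from the start. The motif, the same on both strands, was found in 6.75% of 32851 RefSeq promoter windows of that length and in 5 of the 26 members with a window (F2, F3, Hrg, Plaur and Procr). An exon of Gm43823, annotated on the other strand, overlaps part of this window. A match describes letters in the sequence and is no evidence of binding.

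Among contact factors and kininogens, 3 of 5 rose and 1 fell. Kng2 encodes the second mouse kininogen, the precursor of bradykinin and a cofactor of contact activation. It was at 134, 183, 206 and 195 CPM in WT vehicle and at 299, 260, 305 and 276 CPM in WT PRA. The groups were well apart, and Kng2 rose 1.59-fold (log2 fold change 0.67 ± 0.12, adjusted p = 0.000303). Its neighbour and near copy Kng1 was at 1343, 1804, 2092 and 1915 CPM in WT vehicle and at 2366, 2243, 2246 and 2363 CPM in WT PRA, a rise by 0.37 ± 0.11 (adjusted p = 0.0233). Vehicle replicate 1 was the lowest WT library for both kininogens. Reads without a unique alignment, such as those that fit Kng1 and Kng2 equally well, were set aside in a summary line and not counted for genes. F12, the zymogen of the contact protease factor XIIa, rose from 565 ± 59.8 to 707 ± 31.5 CPM (0.32 ± 0.08, adjusted p = 0.00818). Klkb1, prekallikrein, moved the other way. It was at 132, 171, 174 and 176 CPM in WT vehicle and at 120, 137, 115 and 120 CPM in WT PRA, lower by 0.41 ± 0.10 (adjusted p = 0.00437). Vehicle replicate 1 overlapped the PRA range and the other 3 vehicle libraries were above it. F11 was at 145 ± 12.3 CPM in vehicle and 122 ± 13.8 CPM in PRA and did not pass (-0.25, adjusted p = 0.125).

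Of the 7 common pathway factors and cofactors, 1 rose and 2 fell. F2, prothrombin, rose from 2105 ± 203 to 2631 ± 102 CPM (0.32 ± 0.08, adjusted p = 0.00783). F8, the cofactor of factor IXa, was at 9.87, 6.34, 5.95 and 5.80 CPM in WT vehicle and at 4.57, 5.35, 5.25 and 5.12 CPM in WT PRA. All PRA libraries were below all vehicle libraries, and the fall was by 0.47 ± 0.16 (adjusted p = 0.0375). Adamts13 was at 3.71, 3.67, 3.61 and 3.94 CPM in WT vehicle and at 2.37, 2.05, 3.75 and 1.90 CPM in WT PRA. PRA replicate 3 sat inside the vehicle range and the other 3 lay below it, and the fall was by 0.57 ± 0.19 (adjusted p = 0.0386). F9 was higher in every PRA library, at 205 ± 9.35 against 173 ± 5.06 CPM, but missed the threshold (0.25, adjusted p = 0.0616). F5 (0.07, adjusted p = 0.719), F10 (0.24, adjusted p = 0.111) and Vwf (-0.20, adjusted p = 0.513) did not pass.

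Clot stabilisation was represented in the calls by Cpb2 alone. Cpb2 encodes the plasma carboxypeptidase that removes plasmin's binding sites from fibrin and so slows lysis. It was at 290, 344, 366 and 300 CPM in WT vehicle and at 512, 529, 490 and 498 CPM in WT PRA. The PRA libraries were tightly grouped above all vehicle libraries, and Cpb2 rose 1.56-fold (0.64 ± 0.10, adjusted p = 5.91e-05). F13b, the carrier subunit of factor XIII, was at 174 ± 10.1 CPM in PRA and 172 ± 3.28 CPM in vehicle (0.01, adjusted p = 0.923). F13a1 had 26, 6, 22 and 6 counts in vehicle and 10, 13, 18 and 17 counts in PRA and did not pass (adjusted p = 0.487).

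The promoters of Kng2 and Cpb2 are shown because these are the members called between genotypes below. Both sequences are from RefSeq (GRCm38.p6). The Kng2 window is chr16:23029102-23029351 on the minus strand, and the Cpb2 window is chr14:75242037-75242286 on the plus strand.
Kng2: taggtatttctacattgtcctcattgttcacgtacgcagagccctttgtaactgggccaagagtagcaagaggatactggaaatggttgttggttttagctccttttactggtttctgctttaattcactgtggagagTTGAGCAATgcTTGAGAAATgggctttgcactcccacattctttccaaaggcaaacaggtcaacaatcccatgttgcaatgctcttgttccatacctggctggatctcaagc
Cpb2: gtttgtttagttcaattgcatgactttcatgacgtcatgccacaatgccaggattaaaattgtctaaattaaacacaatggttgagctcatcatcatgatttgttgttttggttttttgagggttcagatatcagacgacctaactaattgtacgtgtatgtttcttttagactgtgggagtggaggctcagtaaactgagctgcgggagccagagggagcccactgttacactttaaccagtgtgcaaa
Capitals mark matches to the C/EBP motif TTNNGNAAT, read on both strands (reverse complement ATTNCNNAA). Kng2 had a match at -112 to -104 and another at -101 to -93 from its start. The second shared its last base with a match at -93 to -85 to the HNF4 motif CAAAGNCCA, which is on the other strand and not in capitals. The C/EBP motif was found in 10.2% of the 32851 windows and in 5 of 26 members (Adamts13, F13b, Hrg, Klkb1 and Kng2), and the HNF4 motif in 1.70% of windows and 1 member. The STAT motif TTCNNNGAA was in 7.02% of windows and in 2 members (F9 and Pros1), and the HNF1 motif in 0.371% of windows and 1 member (F13b). The Cpb2 window held none of the 5 motifs, which says only that these letters are not in this window. RefSeq promoter entries were found for 26 of 33 members, and Kng1, Plau, Plat, Proc, Plg, Vwf and Thbd had none.

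Of the 7 anticoagulants, Thbd and Pros1 rose and none fell. Thbd encodes thrombomodulin, which redirects thrombin to activate protein C and the carboxypeptidase encoded by Cpb2. It was at 3.79, 1.91, 1.88 and 4.16 CPM in WT vehicle and at 23.8, 22.6, 19.6 and 17.4 CPM in WT PRA. The lowest PRA library was far above the highest vehicle library, and Thbd rose 7.05-fold (2.82 ± 0.21, adjusted p = 2.54e-08). Pros1 encodes protein S, the cofactor of activated protein C. It was at 53.9, 45.4, 43.7 and 41.3 CPM in WT vehicle and at 63.2, 57.4, 67.7 and 55.7 CPM in WT PRA, with no overlap, and rose by 0.40 ± 0.10 (adjusted p = 0.00460). Proc, the zymogen of protein C (0.11, adjusted p = 0.462), its endothelial receptor Procr (-0.32, adjusted p = 0.514), antithrombin (Serpinc1, 0.16, adjusted p = 0.221), heparin cofactor II (Serpind1, -0.00, adjusted p = 0.991) and protein Z (Proz, -0.02, adjusted p = 0.866) did not pass.

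Among 8 fibrinolysis genes, 4 rose and 1 fell. Plaur, the receptor that holds urokinase at the cell surface, was at 0.386, 0.544, 0.489 and 0.436 CPM in WT vehicle and at 2.70, 1.74, 1.2 and 1.03 CPM in WT PRA. Every PRA library was above every vehicle library, and Plaur rose 3.55-fold (1.83 ± 0.33, adjusted p = 0.000409). Its ligand Plau, urokinase, was at 1.05, 1.59, 2.18 and 0.909 CPM in WT vehicle and at 0.899, 0.631, 0.937 and 0.336 CPM in WT PRA, a fall by 1.05 ± 0.34 (adjusted p = 0.0297). For Plau, PRA replicate 3 slightly exceeded vehicle replicate 4, so the groups touched. Vtn was at 2555, 3157, 3252 and 2764 CPM in WT vehicle and at 4978, 4806, 4442 and 4053 CPM in WT PRA. The Vtn groups were apart, with a 1.56-fold rise (0.64 ± 0.10, adjusted p = 8.82e-05). Plg rose from 2700 ± 84.1 to 3478 ± 66.6 CPM (0.37 ± 0.08, adjusted p = 0.00165) and Hrg from 1154 ± 201 to 1473 ± 45.9 CPM (0.35 ± 0.13, adjusted p = 0.0493). Pzp (0.25, adjusted p = 0.0674), the plasmin inhibitor Serpinf2 (0.17, adjusted p = 0.263) and tissue-type plasminogen activator Plat (-0.02, adjusted p = 0.975) did not pass.

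**Figure D2:**
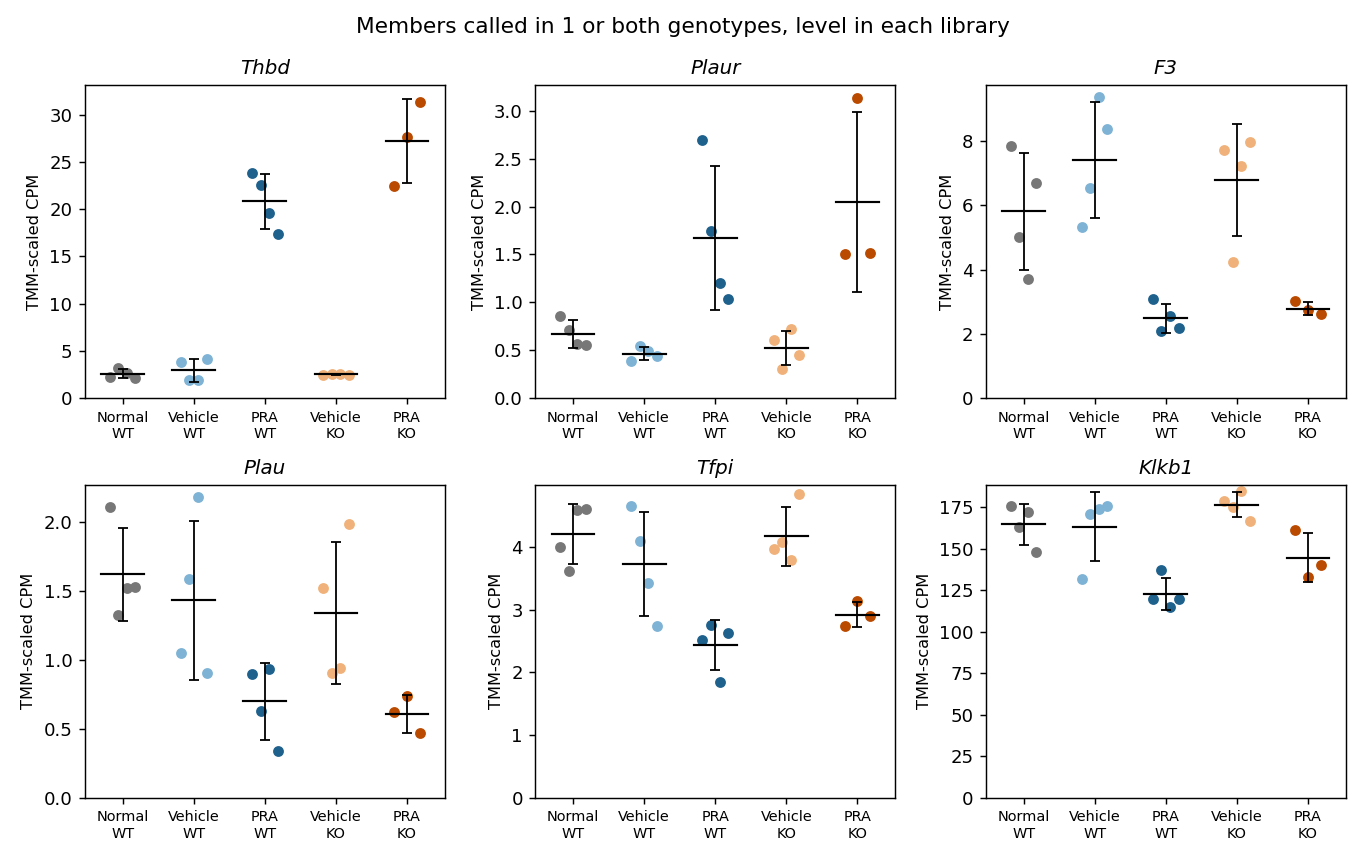
TMM-scaled CPM (vertical axis, from 0) of Thbd, Plaur, F3, Plau, Tfpi and Klkb1 in each library (points) of the 5 groups, with group mean and SD (lines and bars). Thbd and Plaur are high in all 7 PRA libraries of both genotypes and F3 is at or below 3.09 CPM in all of them.

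Several of these calls rest on few libraries. F8 lost its call without vehicle replicate 1 (-0.24, adjusted p = 0.203) and without any 1 of the 4 PRA libraries (-0.49 to -0.42, adjusted p = 0.0586 to 0.0966). Adamts13 kept its call only when PRA replicate 3 was left out, and lost it without each of the other 7 libraries (-0.59 to -0.45, adjusted p = 0.0533 to 0.127). Plau lost its call without vehicle replicate 2 (-0.99) or 3 (-0.78) and without PRA replicate 2 (-1.0) or 4 (-0.80). Hrg lost it without each library except vehicle replicate 3 (0.25 to 0.38), and Kng1 without PRA replicate 1 or 4 (0.35 each). The other 12 calls were kept whichever WT vehicle or WT PRA library was left out.

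The calls of the smaller rises depended on how libraries were scaled. With library totals in place of TMM, tried after seeing the scaling factors, the median of all genes in this comparison moved from -0.03 to -0.33. The call then covered 15 of 33 members, 5 higher and 10 lower, in place of 11 and 6. On that scale 7034 of 15570 genes tested were called, a share near that of the members. Thbd (2.50), Plaur (1.53), Kng2 (0.38, adjusted p = 0.00506), Cpb2 (0.35, adjusted p = 0.00145) and Vtn (0.35, adjusted p = 0.00150) stayed higher. F3 (-1.87), Plau (-1.34), Tfpi (-0.92), Adamts13 (-0.88), F8 (-0.78) and Klkb1 (-0.70) stayed lower. The 6 smaller rises, of F12, Kng1, F2, Pros1, Plg and Hrg, shrank to log2 values of 0.03 to 0.10 and none passed. F11 (-0.55), F13b (-0.29), Serpind1 (-0.30) and Proz (-0.32) were newly lower on that scale. The 6 smaller rises are therefore rises relative to the bulk of genes and not in share of the library.

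**Figure D3:**
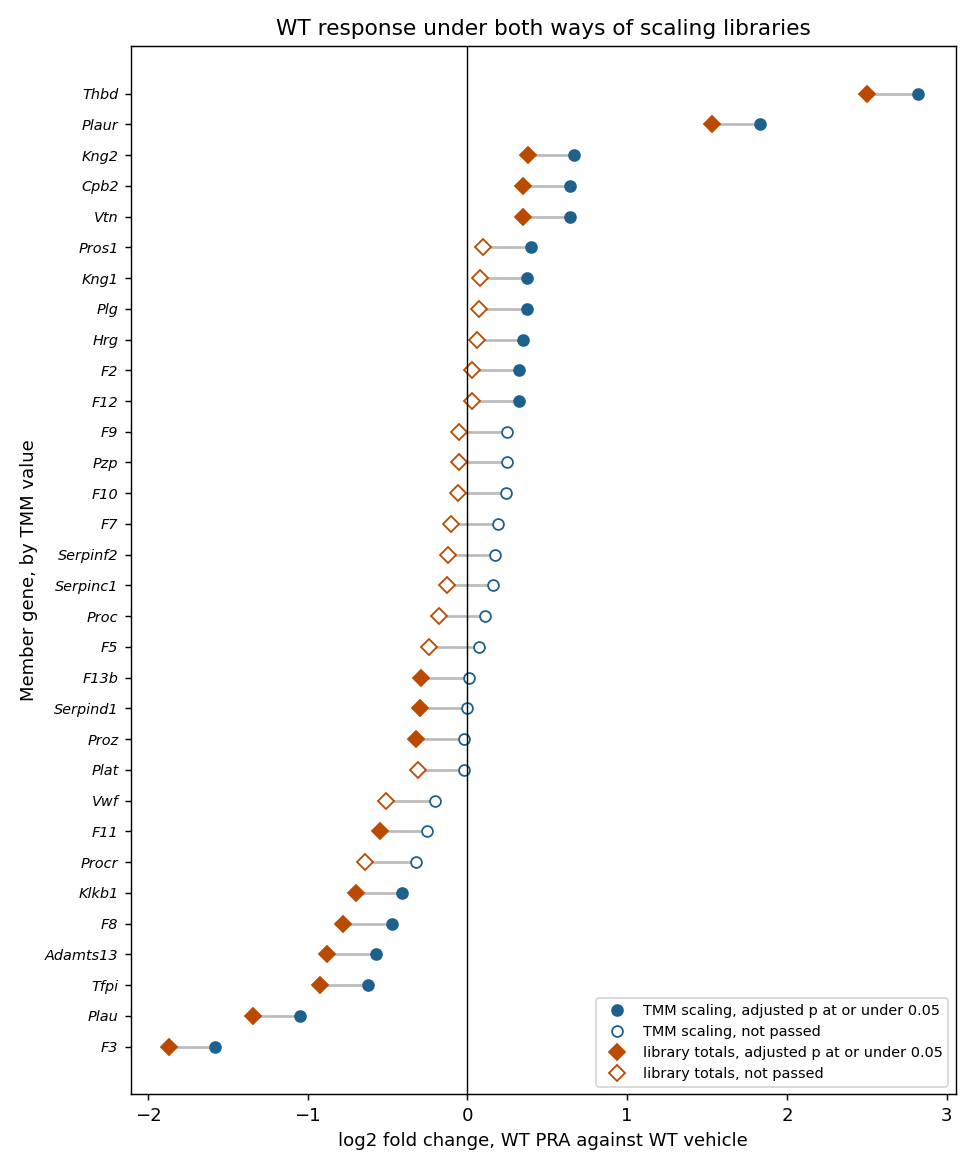
Log2 fold change of 32 members, WT PRA against WT vehicle (horizontal axis), with TMM scaling and with library totals; rows are ordered by the TMM value and F13a1 is left out. The 6 genes that fell lie left of 0 on both scales, 5 of the genes that rose stay right of 0 and past the threshold on both, and the smaller rises move to near 0 with library totals.

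Markers of other liver cells moved in the same comparison, and their part in these results was not tested. As background for the counts of markers, 9.74% of all genes were higher and 12.3% lower. Of 13 sinusoidal endothelial markers 8 were lower and 1, Lyve1, was higher (median -0.45), with summed levels of 355 to 549 CPM in WT vehicle and 311 to 370 in WT PRA. Those markers moved with the falls of F8 and Tfpi and opposite to the rise of Thbd. Of 8 other endothelial markers 3 were lower and none higher. Of 11 stellate and fibroblast markers 5 were lower and none higher (median -0.42), with sums of 352 to 403 CPM in vehicle and 219 to 344 in PRA, the same direction as Adamts13. All 6 neutrophil markers tested of 8 were higher (median 3.31), with sums of 1.42 to 3.22 CPM in vehicle and 11.2 to 12.9 in PRA, the same direction as Plaur, and 1 of the 8 was at 0 in every WT vehicle library. Of 8 monocyte markers 3 were higher and none lower, with sums of 1052 to 1393 CPM in vehicle and 1451 to 1808 in PRA. These sums include Fn1, so they do not measure monocytes alone. Of 9 hepatocyte markers 4 were higher and none lower (median 0.35 with TMM). That is the direction of the smaller rises of F12, F2, Plg, Kng1 and Hrg on the same scale. The list is not given here with library totals, on which its member Hnf4a lost its call. WT vehicle replicate 1 was the lowest of its group in 16 of the 23 members over 10 CPM.

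In KO liver, PRA went with fewer called members. The test called 4 of 33, or 12.1%, where 16.3% of all genes were called, so the share was not above the background. The 2 higher genes were Thbd and Plaur, against 7.96% of all genes higher, and the 2 lower genes were F3 and Plau, against 8.38% lower. With library totals, where the median of all genes was -0.21, the split was 2 higher and 7 lower, with Klkb1, Tfpi, F8, Proz and Serpinf2 also lower. On that scale 3817 of 15570 genes tested were called, a share near that of the members. Unadjusted p was at or under 0.05 for 13 members, and 11 of 33 did not overlap between the groups, against 25.2% of all genes. The median log2 fold change was 0.09 for the members and -0.00 for all genes. The KO PRA group had 3 libraries and the WT PRA group 4.

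Thbd was at 2.44, 2.52, 2.59 and 2.44 CPM in KO vehicle and at 22.5, 27.7 and 31.4 CPM in KO PRA, a 10.9-fold rise (3.44 ± 0.23, adjusted p = 1.31e-08). Plaur was at 0.604, 0.308, 0.726 and 0.453 CPM in KO vehicle and at 1.5, 3.13 and 1.51 CPM in KO PRA (1.96 ± 0.34, adjusted p = 0.000476). F3 was at 7.72, 4.22, 7.23 and 7.97 CPM in KO vehicle and at 3.02, 2.73 and 2.61 CPM in KO PRA (-1.28 ± 0.26, adjusted p = 0.00168). For all of these the KO PRA libraries were clear of the KO vehicle libraries, as in WT. Plau was at 1.52, 0.909, 0.942 and 1.99 CPM in KO vehicle and at 0.624, 0.739 and 0.467 CPM in KO PRA (-1.13 ± 0.37, adjusted p = 0.0398), again with no overlap. Plau lost that call without KO vehicle replicate 1 (-1.06) or 4 (-0.88) and without KO PRA replicate 1 (-1.13), 2 (-1.28) or 3 (-0.97). Thbd, Plaur and F3 kept theirs whichever library was left out.

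Some genes called in WT and not in KO were close to the threshold in KO. Tfpi was at 3.96, 4.07, 3.79 and 4.84 CPM in KO vehicle and at 2.73, 3.13 and 2.89 CPM in KO PRA, with no overlap, and its adjusted p was 0.0507 (-0.51). F8 was at 6.55, 7.98, 7.19 and 8.59 CPM in KO vehicle and at 4.17, 6.12 and 5.95 CPM in KO PRA, with an adjusted p of 0.0535 (-0.49). Klkb1 was at 179, 175, 185 and 167 CPM in KO vehicle and at 161, 133 and 140 CPM in KO PRA, with an adjusted p of 0.0697 (-0.29). In these 3 genes every KO PRA library was below every KO vehicle library. Adamts13, at 3.16, 3.39, 2.36 and 3.80 CPM in KO vehicle and 2.82, 1.99 and 3.14 CPM in KO PRA, overlapped (-0.26, adjusted p = 0.442). Pros1 was at 40.3, 47.5, 41.9 and 40.4 CPM in KO vehicle and at 53.6, 44.7 and 56.8 CPM in KO PRA (0.28, adjusted p = 0.0694).

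The secreted genes with the clearest rise in WT had small values in KO. Kng2 was at 176, 164, 207 and 188 CPM in KO vehicle and at 220, 206 and 184 CPM in KO PRA (0.15 ± 0.13, adjusted p = 0.471). Cpb2 was at 349, 306, 338 and 325 CPM in KO vehicle and at 425, 389 and 322 CPM in KO PRA (0.20 ± 0.10, adjusted p = 0.201). Vtn was at 3107, 2968, 3014 and 2926 CPM in KO vehicle and at 3860, 3512 and 3151 CPM in KO PRA (0.22 ± 0.11, adjusted p = 0.165). Kng2 and Cpb2 overlapped between the KO groups and Vtn did not. Among other secreted members, Plg was at 3279 ± 190 CPM in KO PRA and 2823 ± 170 CPM in KO vehicle (0.22, adjusted p = 0.0808), F12 at 691 ± 33.7 and 589 ± 19 CPM (0.23, adjusted p = 0.0914) and F2 at 2408 ± 82.8 and 2133 ± 70.3 CPM (0.18, adjusted p = 0.198). Hrg (0.31, adjusted p = 0.132) and Kng1 (0.08, adjusted p = 0.723) did not pass either, nor did the other 16 members. The KO count depended on the method: DESeq2 called 9 members, limma-voom 11 and library totals 9. The share of all genes is not set beside the DESeq2 and limma-voom counts, so these are not read against a background. Leaving out KO vehicle replicate 2 gave 7 calls.

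Markers of other liver cells also moved between the KO groups, and their part in these values was not tested. As background for the counts of markers, 7.96% of all genes were higher and 8.38% lower. Of 13 sinusoidal endothelial markers 4 were lower and 1 higher (median -0.36), with sums of 395 to 447 CPM in KO vehicle and 317 to 411 in KO PRA, the direction of F8 and Tfpi. Of 11 stellate and fibroblast markers 3 were lower and none higher (median -0.23). Of 6 neutrophil markers tested 2 were higher and none lower (median 0.92, the direction of Plaur). Their sums overlapped, at 4.45 to 6.06 CPM in KO vehicle and 4.16 to 13.7 in KO PRA. The KO response minus the WT response had a median of -1.99 over these markers, with 1 called lower. For Plaur it was 0.13 (adjusted p = 0.981). Of 8 monocyte markers 1 was lower and none higher in KO (median -0.42), opposite to Plaur. Of 9 hepatocyte markers 4 were higher and none lower (median 0.35), on the TMM scale only.

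**Figure D4:**
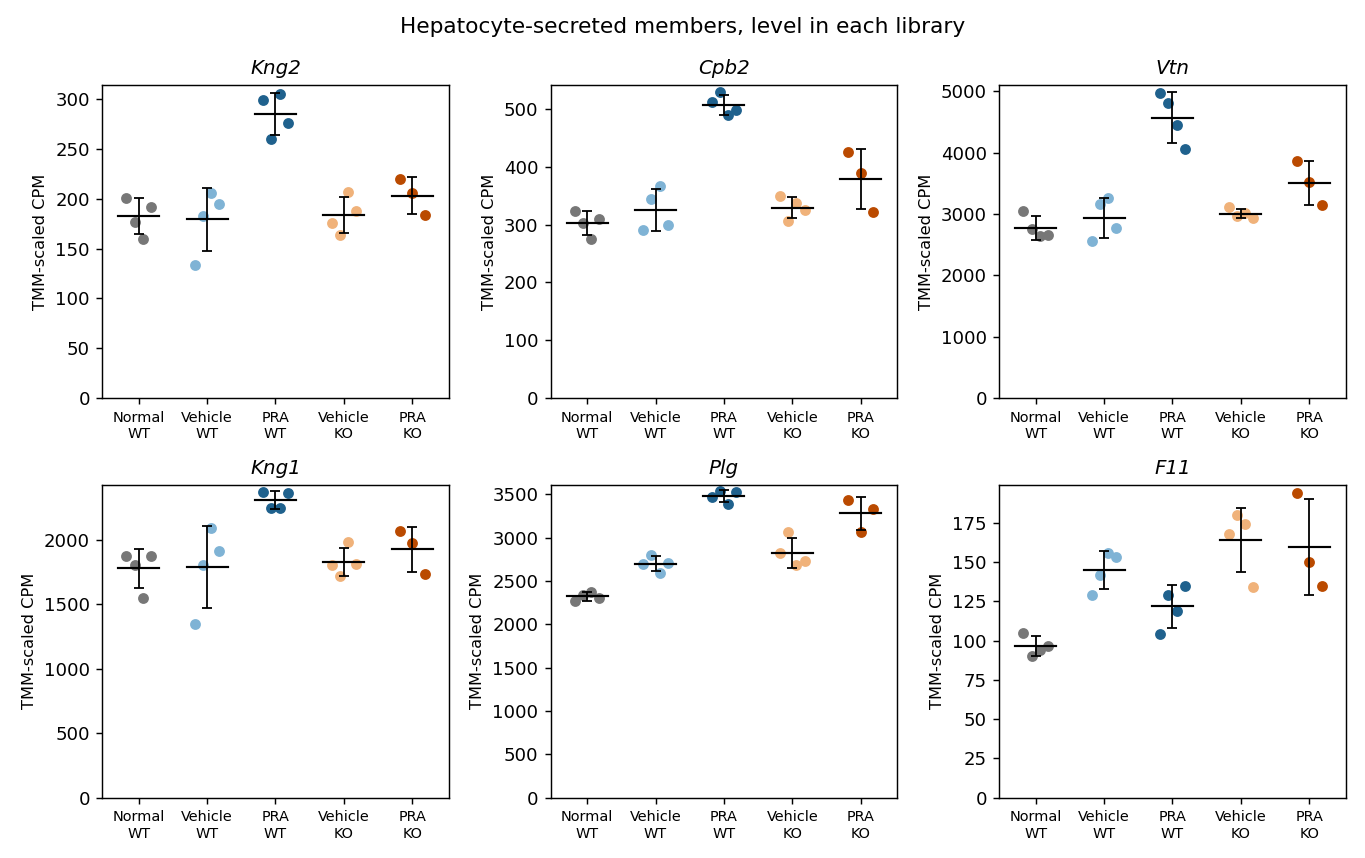
TMM-scaled CPM (vertical axis, from 0) of Kng2, Cpb2, Vtn, Kng1, Plg and F11 in each library (points) of the 5 groups, with group mean and SD. In WT PRA the 4 libraries of Kng2, Cpb2 and Vtn are above every library of the other 4 groups, while F11 has its lowest group mean in normal liver.

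The direct test of whether the PRA response differed between genotypes called none of the 33 members by edgeR, DESeq2 or limma-voom, where edgeR called 0.475% of all genes (0.0385% with a larger and 0.437% with a smaller value in KO). At an unadjusted p at or under 0.05 there were 3: Kng2 (KO response minus WT response, -0.52, unadjusted p = 0.00629, adjusted p = 0.275), Cpb2 (-0.44, adjusted p = 0.255) and Vtn (-0.42, adjusted p = 0.325). Thbd was on the other side, with a KO response larger by 0.63 (adjusted p = 0.565). A larger count of calls in WT than in KO is therefore not by itself a tested difference in response.

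**Figure D5:**
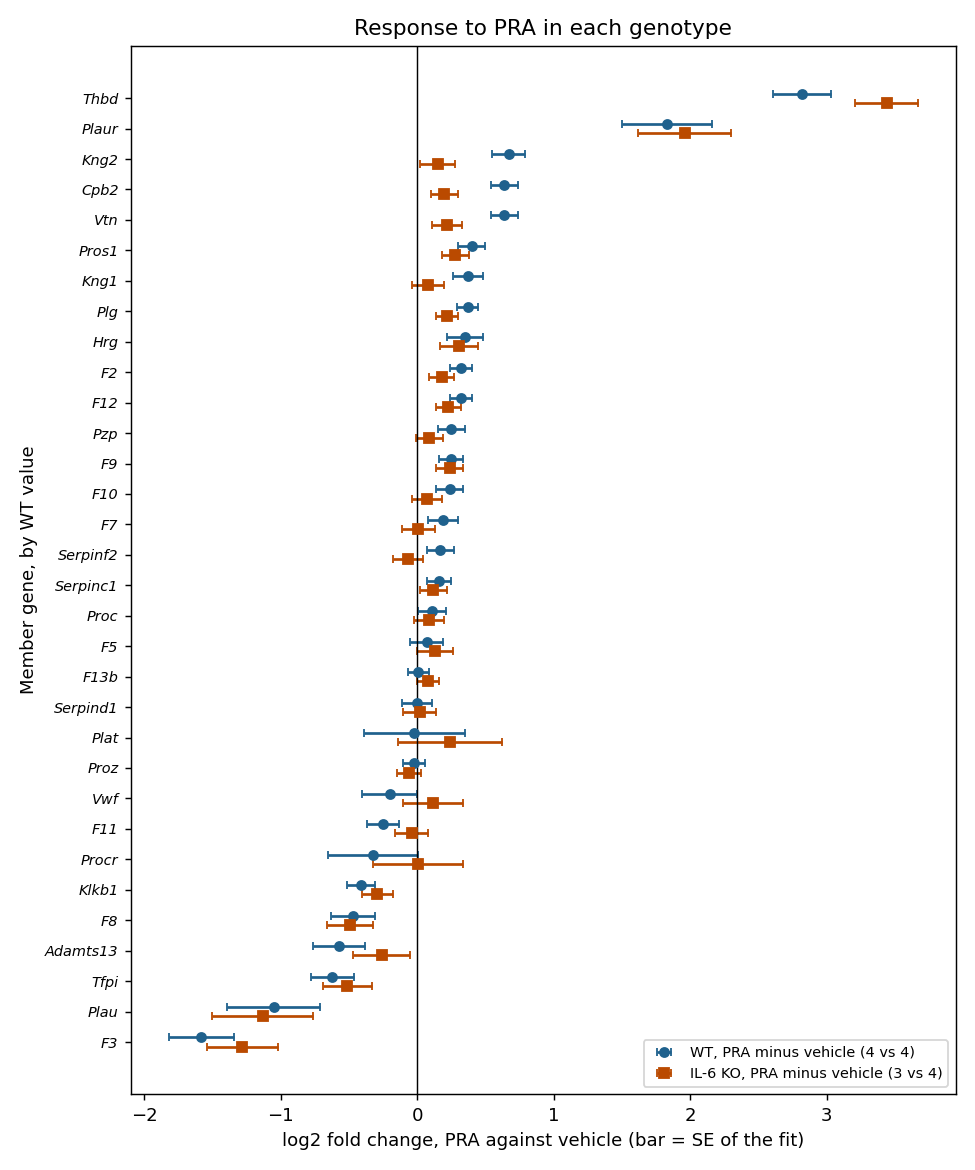
Log2 fold change of 32 members, PRA against vehicle, in WT and in KO (points), with the SE of the fit (bars); rows are ordered by the WT value and F13a1 is left out. Thbd and Plaur lie far to the right and F3 and Plau to the left in both genotypes, and Kng2, Cpb2 and Vtn show the widest gaps among the secreted genes that rose in WT.

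Set side by side under PRA, Kng2 and Cpb2 were called lower in KO than in WT liver, and both calls depended on single libraries. The test called 2 of 33, or 6.06%, where 3.80% of all genes were called, 1.64% higher and 2.15% lower. The share called was thus near that of all genes. Kng2 averaged 203 ± 18.1 CPM (n = 3) in KO PRA and 285 ± 20.8 CPM (n = 4) in WT PRA, lower by 0.49 ± 0.13 on the log2 scale (adjusted p = 0.0324). Cpb2 averaged 379 ± 52.5 CPM in KO PRA and 507 ± 17.0 CPM in WT PRA, lower by 0.42 ± 0.10 (adjusted p = 0.0243). Vtn, at 3508 ± 355 against 4570 ± 411 CPM, missed the threshold (-0.38 ± 0.11, adjusted p = 0.0504). For these 3 genes all KO PRA libraries were below all WT PRA libraries. That held for 6 of 33 members in all, the others being F2 (-0.13), F7 (-0.27) and Kng1 (-0.26). The share was near the 15.7% of all genes whose groups did not overlap in either direction. Unadjusted p was at or under 0.05 for 9 members.

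Both calls between genotypes were fragile. Kng2 lost its call without WT PRA replicate 1 (-0.46), 3 (-0.45) or 4 (-0.50) and without KO PRA replicate 2 (-0.50) or 3 (-0.42). Cpb2 lost it without WT PRA replicate 1 (-0.42), 2 (-0.40) or 4 (-0.43) and without KO PRA replicate 2 (-0.44) or 3 (-0.32). Vtn passed without WT PRA replicate 4 (-0.43, adjusted p = 0.0432) or KO PRA replicate 1 (-0.46, adjusted p = 0.0444). The count was 0 without WT PRA replicate 1 or KO PRA replicate 2. With library totals 4 members were called: Kng2, Cpb2 and Vtn lower and F11 higher. The share of all genes on that scale is not set beside this count, so it is not read against a background. Neutrophil marker sums were 4.16 to 13.7 CPM in KO PRA and 11.2 to 12.9 in WT PRA, and hepatocyte marker sums 116806 to 160945 and 112052 to 119872. Their part in the result was not tested.

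Under vehicle, no member was called between KO and WT by edgeR, DESeq2 or limma-voom, where edgeR called 0.0706% of all genes (0.0514% higher and 0.0193% lower). None had an unadjusted p at or under 0.05, and none had groups that did not overlap, against 2.68% of all genes. Thbd averaged 2.50 ± 0.0735 CPM in KO vehicle and 2.93 ± 1.21 CPM in WT vehicle, Kng2 184 ± 18.3 and 180 ± 31.7 CPM, and Cpb2 330 ± 18.5 and 325 ± 36.1 CPM (n = 4 each).

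Vehicle injection itself went with 1 called member, or 3.03%, where 2.00% of all genes were called, 1.18% higher and 0.822% lower. F11, the zymogen of factor XIa, was at 105, 90.5, 94.1 and 96.7 CPM in normal liver and at 129, 142, 156 and 153 CPM in WT vehicle. The groups were clearly apart, and F11 was 1.5-fold higher after vehicle (0.59 ± 0.12, adjusted p = 0.0104). It was at 104, 129, 119 and 135 CPM in WT PRA, at 168, 180, 174 and 134 CPM in KO vehicle and at 194, 150 and 135 CPM in KO PRA, so normal liver had the lowest group mean, with WT PRA replicate 1 inside its range. The F11 call was kept whichever normal or WT vehicle library was left out, and with library totals. F9 was also higher in every vehicle library, at 173 ± 5.06 against 140 ± 3.69 CPM, but did not pass (0.31, adjusted p = 0.0895). In all, 5 members had an unadjusted p at or under 0.05, and 7 of 33 did not overlap between the groups, against 8.52% of all genes. DESeq2 called F11, F9, F13a1 and Plg, where it called 655 of the 15570 genes. Injection, handling and vehicle cannot be told apart in this comparison.

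Against normal liver, WT PRA differed in 21 members, or 63.6%, where 28.4% of all genes were called. The comparison shares its WT PRA libraries with the one against vehicle. The 17 higher members, against 13.5% of all genes, were Thbd (3.02), Plaur (1.31), Cpb2 (0.75), Vtn (0.72), Kng2 (0.64), Plg (0.58), F9 (0.56), Hrg (0.52), Pros1 (0.50), Pzp (0.45), F2 (0.40), Serpinf2 (0.39), Kng1 (0.38), F7 (0.37), F11 (0.33), F12 (0.27) and F13a1. F13a1 went from 0, 2, 5 and 3 counts to 10, 13, 18 and 17 counts (adjusted p = 0.00461). In the same comparison 5 of 9 Kupffer cell markers were higher and none lower (median 0.68), with sums of 151 to 317 CPM in normal liver and 329 to 477 in WT PRA, and 4 of 8 monocyte markers were higher and 1 lower. Their part in the F13a1 value was not tested. The 4 lower members, against 14.9% of all genes, were F3 (-1.23), Plau (-1.23), Tfpi (-0.79) and Klkb1 (-0.42). Groups did not overlap in 23 of 33 members, against 33.6% of all genes. With library totals the split was 7 higher and 13 lower and the median of all genes was -0.40, and the 7 were Thbd, Plaur, Cpb2, Vtn, Kng2, Plg and F13a1. On that scale 8804 of 15570 genes tested were called, a share near that of the members. F11 lost its call without 6 of 8 libraries (normal replicates 2, 3 or 4 and PRA replicates 2, 3 or 4, 0.27 to 0.34). F12 lost it without normal replicate 4 (0.24) or PRA replicate 1 (0.24) or 2 (0.25), F7 without PRA replicate 2 (0.33) and Kng1 without normal replicate 3 (0.32).

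Other genes of the pathway showed where larger genotype differences lay. The 3 fibrinogen chains all rose in WT (Fgg 1.40, Fga 1.37 and Fgb 1.30) and none passed in KO (0.20 to 0.32). Fgb was at 7323, 6927, 7696 and 5640 CPM in WT vehicle, 15570, 14966, 21131 and 16379 in WT PRA, and 8729, 7349 and 7153 in KO PRA. The interaction was called for all 3 (-1.10 to -1.05, adjusted p = 0.0247 each). Of 10 other inhibitors and cofactors (list median 0.23 in WT), 4 rose in WT (Serpina10, Serpina5, Serping1 and C4bp) and 2 in KO. Of all genes, 9.74% were higher in WT and 7.96% in KO. Serpina10, the protein Z-dependent protease inhibitor that acts on factor Xa, was at 158, 151, 168 and 184 CPM in WT vehicle and at 367, 359, 489 and 440 CPM in WT PRA (1.33 ± 0.13, adjusted p = 5.21e-07). In KO it was at 195, 146, 170 and 134 CPM under vehicle and at 163, 134 and 134 CPM under PRA (-0.17, adjusted p = 0.467). The WT PRA libraries were the high ones, and the interaction was called (-1.49 ± 0.20, adjusted p = 0.000383). Its partner Proz, named above, did not pass in either genotype. Serping1, the C1 inhibitor, which also blocks kallikrein and factor XIIa, rose by 0.44 in WT (adjusted p = 0.000877), and Serpina5, the protein C inhibitor, rose by 1.46 from a low level (0.233 ± 0.158 to 0.660 ± 0.210 CPM, adjusted p = 0.0222). With library totals the calls of Serping1, Serpina5 and C4bp were lost (adjusted p = 0.0850, 0.0531 and 0.689).

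Among other fibrinolysis genes, A2m, a broad protease inhibitor (2.15, adjusted p = 0.0116), rose in WT from 0.0915 ± 0.0744 CPM. That starting level is near the 0.0405 to 0.0935 CPM that a count of 0 allows on unscaled totals, so the size of the rise is uncertain. Plgrkt, a plasminogen receptor, fell in WT (-0.52, adjusted p = 0.0105) and in KO (-0.63, adjusted p = 0.00662).

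Of 9 genes of the vitamin K cycle and of factor secretion, 1 was called in WT, where 22.1% of all genes were, and 2 in KO, where 16.3% were. Mcfd2, a cargo receptor subunit for factors V and VIII, was the gene called in WT (0.39, adjusted p = 0.00512; list median -0.05; adjusted p = 0.371 with library totals), and Aifm2 (0.53) and Calu (0.40) were called in KO. Of 4 protease-activated receptors 2 were tested and neither passed in either genotype. Of 9 liver-enriched transcription factors, 3 were lower in WT (Onecut1 -1.68, Foxa1 -1.09 and Cebpa -0.60), where 12.3% of all genes were lower. Higher in WT was 1, Hnf4a (0.57, adjusted p = 0.00318, or 0.152 with library totals), where 9.74% of all genes were higher. In KO 3 were lower and 1 higher, against 8.38% and 7.96% of all genes. The endothelial factors Klf2 and Klf4, which are known to regulate Thbd in cultured endothelium, rose in WT (1.33 and 1.31) and in KO (1.08 and 1.93), and Klf2 was lower in WT vehicle than in normal liver (-0.87, adjusted p = 0.0161). Between WT PRA and normal liver neither passed (Klf2 0.47, adjusted p = 0.0615, and Klf4 0.58, adjusted p = 0.0859). In that comparison Thbd was higher (3.02). The part of Klf2 and Klf4 in the Thbd values was not tested.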

How the data were processed

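Poly(A) RNA of mouse liver was sequenced in 19 libraries. The values deposited by the authors are raw gene counts, in 1 table for the series and 1 file per library. Per the submitters' processing notes, HISAT2 2.2.1, SAMtools 1.13, HTSeq 0.11.3 and GRCm39 were used. Annotation release and strand setting: not given in the sources used here, so reads of overlapping or antisense genes cannot be told apart. Lines naming no gene (28.3% to 33.1% of a library) stayed out of library sizes and tests. All 19 per-library files held the counts of the series table, and no pair of replicates agreed within sampling noise (lowest chi-square per degree of freedom 20.2).

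Groups and replicate numbers came from the titles. The counts were fitted in R 4.3.3 by edgeR 4.0.16, with filterByExpr (15570 genes kept), TMM, 1 quasi-likelihood model (group means, all 19 libraries), 7 comparisons, Benjamini-Hochberg adjustment over all genes within a comparison and a threshold of 0.05. The procedure was tested on simulated counts. A count of 0 allows 3 counts, or 0.0405 to 0.0935 CPM on unscaled totals (not the TMM scale of the printed levels), for counting error only. Gene names came from a table that matched 52083 of 55416 identifiers. Other settings tried were upper quartile and RLE scaling, no filter, a filter of 1 CPM in 3 libraries, DESeq2 1.42.0, limma-voom (limma 3.58.1), a replicate block, only the groups compared, leaving out each library and, added after seeing the data, library totals. Members and lists were chosen with earlier results of these data known. All members are named, with every library given for those called between genotypes and for the 6 largest changes each way in WT; lists give up to 3 called genes by size of change, and genes beyond these (F11 per library, C4bp, Hnf4a, Aifm2, Calu) were chosen after seeing values. A gene of the lists that the rule names is withheld and is not reported here.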

Additional observations from a re-analysis of the deposited data

Results flagged for a closer look

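Over 132 combinations of a member and a group of 4 libraries, 3 held a library far from the other 3, judged by its gap to the nearest library as a share of the group's range. Chance flags about 1 in 20 such groups, or 6.6 here. F8 in WT vehicle replicate 1 was at 9.87 CPM, against 5.80 to 6.34 CPM in the other 3. Klkb1 in WT vehicle replicate 1 was at 132 CPM, against 171 to 176 CPM. F5 in KO vehicle replicate 2 was at 285 CPM, against 207 to 216 CPM.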

How the results depend on the processing

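Counts of called members (main value first) were 17, 4, 0, 2, 0, 1 and 21 for WT PRA against vehicle, KO PRA against vehicle, the interaction, KO against WT under PRA, KO against WT under vehicle, WT vehicle against normal and, last, WT PRA against normal. Leaving out each library gave 12 to 16, 3 to 7, 0 to 0, 0 to 3, 0 to 0, 1 to 1 and 18 to 21. Counts of all genes (3437, 2544, 74, 591, 11, 311 and 4421) became 2754 to 3414, 1671 to 2499, 37 to 95, 314 to 489, 2 to 15, 128 to 299 and 3629 to 3928. For KO PRA against vehicle, upper quartile scaling called 7 members, library totals 9, DESeq2 9 and limma-voom 11. For KO against WT under PRA, library totals called 4 and limma-voom 5. For WT vehicle against normal, DESeq2 called 4 and limma-voom 2. Where no count of all genes is given for a setting and comparison, its member count is not read against a background. Library totals gave 7034 genes for WT PRA against vehicle, 3817 for KO PRA against vehicle, 44 for the interaction, 7 for KO against WT vehicle and 8804 for WT PRA against normal. DESeq2 gave 176 interaction genes, 927 for KO against WT under PRA, 56 for KO against WT vehicle and 655 for WT vehicle against normal, where limma-voom gave 648 and the 2 groups alone 154. For KO against WT vehicle, limma-voom gave 21 and the 2 groups alone 7. The cause was not tested.

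Of the member values followed through every setting, which were those called and a few set beside them, 6 changed sign with library totals: Cpb2 (-0.01) and Kng2 (-0.06) in KO PRA against vehicle, and F11 (-0.04), F12 (-0.11), Kng1 (-0.00) and F7 (-0.01) in WT PRA against normal. Members that did not pass changed sign too, among them F7 (-0.10), F9 (-0.05) and Pzp (-0.05) in WT PRA against vehicle and F2 (-0.03) and Kng1 (-0.13) in KO PRA against vehicle. That scale moves every gene by the ratio of the TMM factors.

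Same-numbered libraries did not clearly deviate together. The correlation of their deviations was -0.25 to 0.19 over 36 pairs (median 0.01), against -0.22 to 0.27 over 108 differently numbered pairs (median -0.01). It was over 0.1 in 9 of the 36 and in 16 of the 108. Of 19 libraries, 6 correlated best with one of their own number, and the numbers were not taken as pairs. With a replicate block, 14 members were called for WT PRA against vehicle (F8, Adamts13 and Hrg lost), 3 for KO PRA against vehicle (Plau lost), 1 for KO against WT under PRA (Kng2 lost, -0.47) and 20 for WT PRA against normal. The interaction and KO against WT vehicle stayed at 0 and WT vehicle against normal at 1. The share of all genes called with the block is not set beside these counts.

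Depth limits F13a1, with 0 to 26 counts a library, and to a lesser degree Plat, Plau, Plaur and Procr, near 1 CPM. Outside the members it also limits A2m. Groups of 3 or 4 libraries and unknown strand limit the rest.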

Other observations

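Platelets and macrophages are among the cells known to carry F13a1, which had 0 to 26 counts a library. Of 9 platelet and megakaryocyte markers 4 were tested, and 2 were higher in WT PRA than in WT vehicle (Ppbp 1.46 and Itga2b 0.47), with summed levels of 9.23 to 13.2 CPM in vehicle and 13.8 to 16.2 CPM in PRA. In KO, 1 was higher (Itga2b 0.63), with sums of up to 14.4 CPM in vehicle and 14.4 to 14.8 CPM in PRA. Of 9 Kupffer cell markers 1 was higher in WT and none passed in KO, with sums of 165 to 349 CPM in WT vehicle and 329 to 477 CPM in WT PRA. Of 6 mesothelial markers 1 was lower in WT, and of 5 cholangiocyte markers tested 1 was higher in WT, and none of either list passed in KO. Of all genes, 9.74% were higher and 12.3% lower in WT, and 7.96% and 8.38% in KO. F13a1 did not pass under PRA against vehicle in either genotype, and its call was against normal liver.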
